A study of Mus musculus with 24 samples.

Results

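Of the 36605 genes counted in the hippocampus of 24 adult mice, 44 carry a collagen symbol, made of Col, a number, the letter a and a number, and the 43 that had 10 or more counts in at least 6 mice are described here. The gene left out was Col10a1, a collagen of growth cartilage, which reached 10 counts in 2 mice. The mice formed 4 genotypes of 6, each with 3 females and 3 males. Egr1f mice carried floxed alleles of Egr1, written FF in the labels and taken by the authors from a C57BL/6N line, in which loxP sites flank part of the gene. NesCre+ mice carried a Nestin-Cre transgene, from a C57BL/6 line, in which the Nestin promoter drives Cre recombinase. Egr1wt NesCre- mice had neither, Egr1f NesCre- mice had the floxed alleles alone, Egr1wt NesCre+ mice had the transgene alone, and Egr1f NesCre+ mice had both and are the conditional knockout (Egr1cKO). The Nestin promoter is active in neural precursor cells, so the loss of Egr1 was not specific to the hippocampus, and how far Cre acts in the fibroblasts and vessel cells that make many collagens is not given in the sources used here. In the labels, the numbers of the Egr1wt mice and of the Egr1f mice formed 2 separate runs, so what the floxed alleles do and what sets these runs of mice apart cannot be told apart.

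Collagens are proteins of the extracellular matrix in which alpha chains from 1 or several genes wind around each other into a helix. The fibrillar types form the fibrils that fibroblasts lay down, which in the brain lie mostly in the meninges and around larger vessels, while type IV collagens build the basement membranes under endothelial cells and at the brain surface. Others decorate fibrils (the FACIT group), form beaded filaments (type VI), span the cell membrane, as in neurons, or release fragments such as endostatin (Col18a1). Egr1 encodes a transcription factor that neuronal activity induces and that binds GC-rich sites.

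The sequences shown here are the starts of genes on which the results turn, as the 250 bases before the annotated gene start in RefSeq on GRCm38.p6, written 5′ to 3′ on the strand of the gene. Col1a2, Col3a1 and Col4a6 belong to the collagens that track Col1a1, Col5a3 is a fibrillar collagen the study names, and Col8a1 is the single collagen whose window holds an EGR1 site searched here. Capitals mark the letters of a CCAAT box (CCAAT) in Col1a2 and Col5a3. In Col3a1 they mark the letters of a TATA box (TATAAA), 117 bases before the start. In Col8a1 they mark the EGR1 site GCGGGGGCG, read on the opposite strand. All are matches of letters, and whether they act as such sites was not tested. Of Col1a2, whose window lies in an annotated exon of another transcript of the gene, 30 bases around its CCAAT box are shown, and no searched motif was present in the window of Col4a6.
Col1a2, chr6:4505497-4505526, plus strand: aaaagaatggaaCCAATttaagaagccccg
Col3a1, chr1:45311288-45311537, plus strand: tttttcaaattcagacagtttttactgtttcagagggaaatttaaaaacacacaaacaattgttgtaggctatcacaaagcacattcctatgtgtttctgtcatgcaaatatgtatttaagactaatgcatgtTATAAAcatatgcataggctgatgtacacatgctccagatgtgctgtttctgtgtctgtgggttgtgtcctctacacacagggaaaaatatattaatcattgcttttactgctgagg
Col4a6, chrX:141474077-141474326, minus strand: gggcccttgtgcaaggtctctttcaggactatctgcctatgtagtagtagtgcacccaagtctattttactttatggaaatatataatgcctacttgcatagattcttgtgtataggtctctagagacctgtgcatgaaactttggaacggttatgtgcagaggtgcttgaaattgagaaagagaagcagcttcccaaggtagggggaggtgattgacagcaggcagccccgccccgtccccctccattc
Col5a3, chr9:20815068-20815317, minus strand: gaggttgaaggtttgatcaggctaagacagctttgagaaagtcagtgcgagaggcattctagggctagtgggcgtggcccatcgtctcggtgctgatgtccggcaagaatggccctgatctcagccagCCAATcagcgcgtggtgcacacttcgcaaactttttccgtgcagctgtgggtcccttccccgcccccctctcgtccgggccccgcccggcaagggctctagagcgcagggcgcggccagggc
Col8a1, chr16:57754738-57754987, minus strand: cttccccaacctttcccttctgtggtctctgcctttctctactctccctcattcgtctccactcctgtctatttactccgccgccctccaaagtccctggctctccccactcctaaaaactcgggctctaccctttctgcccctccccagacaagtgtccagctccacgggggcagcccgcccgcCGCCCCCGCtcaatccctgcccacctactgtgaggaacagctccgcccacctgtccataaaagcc

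The table of promoters held 37 windows for 34 of the 43 collagen genes and 32851 windows for 27025 genes in all. Searched on both strands, CCAAT was present in 13 collagen windows, or 35.1%, and in 33.8% of all windows. TATAAA was present in 4 collagen windows, or 10.8%, and in 12.4% of all. Of the EGR1 sites, GCGTGGGCG was in no collagen window and 0.536% of all, and GCGGGGGCG was in 1 collagen window, or 2.7%, and 2.57% of all. Several collagen genes lie head to head, with starts of Col4a1 and Col4a2 21 bases apart on chromosome 8, of Col4a3 and Col4a4 72 bases apart on chromosome 1 and of Col4a5 and Col4a6 1309 bases apart on chromosome X.

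The totals of counted reads ran from 18025168 to 34955004 per mouse, with a median of 22743950.5. Levels are given as CPM, read counts scaled to a common library total with TMM factors, and as mean ± SD over mice where both are shown. Egr1 was at 7.95 ± 1.93 CPM (n = 6) in Egr1f NesCre+ mice, none above 10.2, while the lowest of the other 18 mice was at 47.7 CPM. So Egr1 set the mice labelled Egr1f NesCre+ apart from the 18 others. It cannot check which NesCre- mice carried floxed alleles or which Egr1wt mice carried the transgene. The labels call the tissue hippocampus and the cell type endocrine. A list of 8 hippocampal neuron markers summed to 647 to 1058 CPM per mouse, and 6 measured pituitary hormone and lineage markers of 7 listed to 1.01 to 3.84 CPM.

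Per kb of exon, a pair of type IV genes led the 43 collagens. Col4a2 had the highest level, at 12.3 ± 2.48 CPM per kb over the 24 mice, followed by its partner Col4a1 at 9.26 ± 1.03 (the alpha chains of the common basement membrane network). Then came Col6a1, a chain of the beaded filaments, at 6.51 ± 3.02, Col25a1, a transmembrane collagen of neurons, at 6.08 ± 0.818, and Col11a2, a minor fibrillar chain, at 5.61 ± 1.04 CPM per kb. These 3 levels differed by less than the SD of Col6a1. The next were 3 FACIT genes, Col9a3 at 3.64 ± 1.82, Col19a1 at 3.12 ± 0.607 and Col16a1 at 2.8 ± 0.626, and then Col5a1, a fibrillar chain, at 2.19 ± 1.05 and Col23a1, a transmembrane collagen, at 2.02 ± 1.12 CPM per kb. Col1a1 ranked 14 of 43, at 1.26 ± 0.492, and Col1a2 ranked 19, at 0.839 ± 0.32. The lowest was Col17a1, a collagen of epithelial hemidesmosomes, at 0.0511 ± 0.0451 CPM per kb. Between single mice, the steadiest of the 43 was Col4a1, whose CV was 11.1%, whereas Col8a1 had a CV of 130.0% and a ratio of 96.7 between the highest and the lowest mouse.

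To separate the collagens that track Col1a1 from the others, Pearson's r with Col1a1 was taken on log2 CPM over the 24 mice after the mean of each of the 8 groups of sex and genotype had been removed, and genes with an r of at least 0.7 were kept together. Because group means were removed, differences between genotypes had no part in the split. Col1a2, which encodes the partner chain of type I collagen, had an r of 0.82 (rho 0.79), Col3a1, the type III fibril chain, an r of 0.77 (rho 0.71) and Col4a6, a rare basement membrane chain, an r of 0.71 (rho 0.75). The nearest genes below the limit were Col4a5 at 0.54 and Col5a2, a type V chain that joins type I fibrils, at 0.49. These correlations are descriptions over the same 24 libraries. Without the 2 mice farthest from the median of Col1a1, a male Egr1f NesCre+ mouse at 18.6 CPM and a male Egr1wt NesCre- mouse at 3.68 CPM, r was 0.74 for Col1a2, 0.62 for Col3a1 and 0.59 for Col4a6. So of the members that track Col1a1, only Col1a2 stayed above 0.7 without these mice. When each mouse was left out in turn, 3 or 4 genes passed, and r of Col4a6 ran from 0.64 to 0.82.

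The fibrillar members of this set also moved with fibroblast genes that are not collagens. Over the 24 mice, r with the mean of 14 meningeal fibroblast markers (among them Dcn, Lum, Slc6a13 and Foxc1) was 0.77 for Col1a1, 0.91 for Col1a2 and 0.86 for Col3a1, and 0.44 for Col4a6. Among the other collagens, Col9a2 (a FACIT chain) at 0.71, Col6a2 at 0.66 and Col12a1 (a FACIT collagen) at 0.64 came nearest. Their r with Col1a1 itself was 0.41, 0.39 and 0.44.

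The other 39 collagens formed further groups across mice, described here without a test. Col6a1 and Col6a2, chains of the same type VI filament whose starts lie 102538 bases apart on chromosome 10, had an r of 0.93, and both went with Col23a1 at 0.90 and 0.92. Col5a1 went with Col24a1, another fibrillar gene, at 0.85. A set of Col4a1, Col4a2, Col11a1, Col16a1 and Col7a1, the anchoring fibril collagen, had r between 0.67 and 0.79 in every pair. Col5a3 went with Col4a1 at 0.77 and with Col1a1 at 0.13. Of the head-to-head pairs, Col4a1 and Col4a2 had an r of 0.79, and the pairs Col4a3 with Col4a4 and Col4a5 with Col4a6 both had 0.53.

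**Figure D1:**
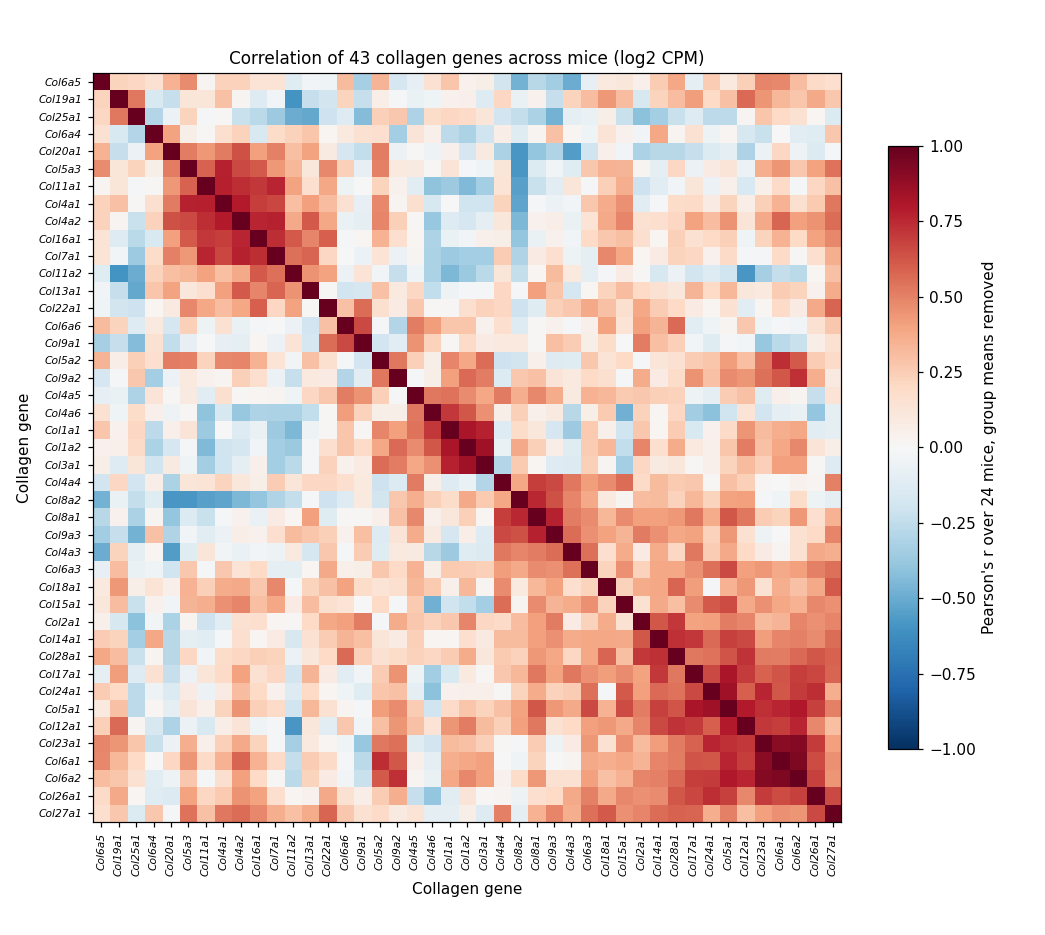
Pearson's r between 43 collagen genes over 24 mice, on log2 CPM with the means of the 8 groups removed. Both axes list the genes, ordered by average linkage, and colour runs from -1 (blue) to 1 (red). Col1a1, Col1a2, Col3a1 and Col4a6 form a small block, apart from the larger block that holds Col6a1, Col6a2 and Col23a1, where r reached 0.93.

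Of the collagens that track Col1a1, Col1a1 and Col1a2 were higher on average in Egr1cKO mice than in their floxed controls. After adjustment no collagen passed edgeR's test in any comparison that kept all its mice and the filter on low counts. DESeq2 called Col1a2 and Col5a3 against these controls and Col20a1 against the 18 other mice. Among females alone, edgeR called Col5a3 and Col6a4 against the floxed controls and Col4a2 against Egr1wt NesCre+ mice. Col1a1 (ENSMUSG00000001506, chromosome 11, 94936224 to 94953042 on GRCm38) had a lowest, median and highest level of 3.68, 6.14 and 10.2 CPM in Egr1wt NesCre-, 5.43, 6.74 and 9.05 in Egr1f NesCre-, 4.46, 9.67 and 10.96 in Egr1wt NesCre+ and 6.71, 9.8 and 18.6 in Egr1f NesCre+ mice. The ranges of all 4 genotypes overlapped, and the highest mouse, at 18.6 CPM, was a male Egr1f NesCre+ mouse. Col1a2 (ENSMUSG00000029661, chromosome 6, 4504814 to 4541544) was at 3.25, 8.85 and 15.1 CPM in Egr1wt NesCre-, 5.37, 8.22 and 9.42 in Egr1f NesCre-, 7.21, 9.89 and 16.8 in Egr1wt NesCre+ and 9.79, 12.7 and 21.3 in Egr1f NesCre+ mice. All 6 Egr1f NesCre+ mice were thus above all 6 Egr1f NesCre- mice, while the Egr1wt mice overlapped both. Col3a1 (ENSMUSG00000026043, chromosome 1, 45311538 to 45349706) was low, at 0.775, 2.08 and 4.34 CPM in Egr1wt NesCre-, 1.15, 1.88 and 4.57 in Egr1f NesCre-, 0.884, 2.61 and 3.34 in Egr1wt NesCre+ and 1.56, 2.53 and 7.21 in Egr1f NesCre+ mice. Col4a6 (ENSMUSG00000031273, chromosome X, 141165403 to 141474076) had medians between 1.24 and 1.49 CPM in the 4 genotypes, and its ranges overlapped throughout. In bulk tissue, a change in the number of fibroblasts and a change in the RNA of each fibroblast cannot be told apart.

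**Figure D2:**
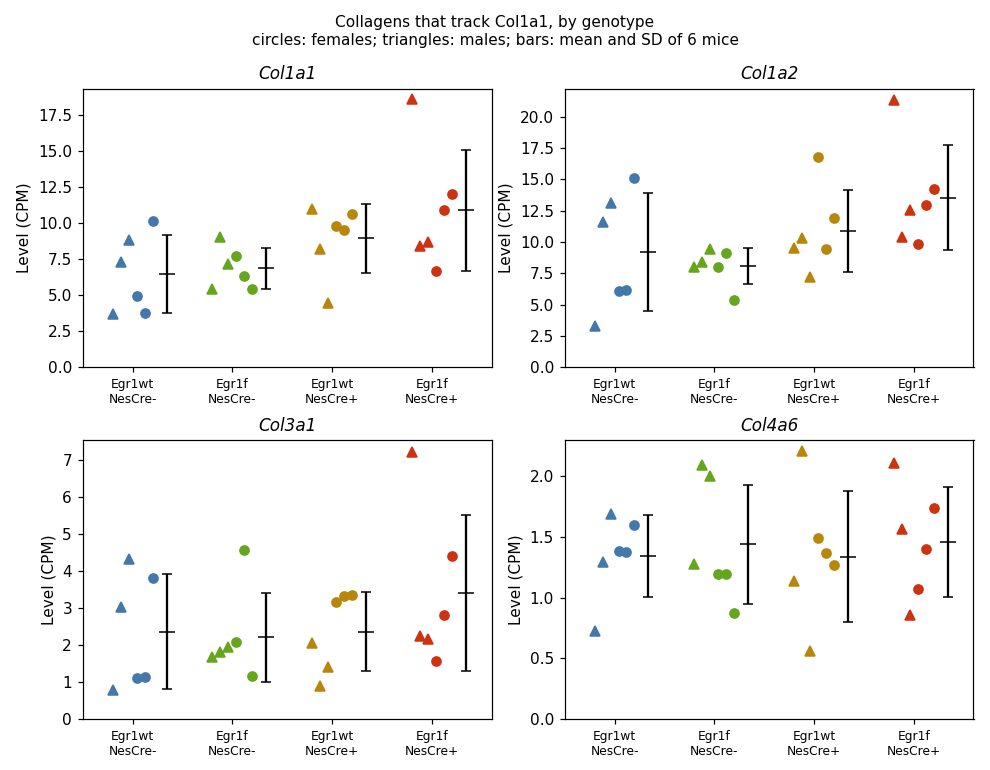
Levels of Col1a1, Col1a2, Col3a1 and Col4a6 in CPM for each of 24 mice by genotype, with circles for females, triangles for males and bars for the mean and SD of 6 mice. The 6 Egr1f NesCre+ mice lie between 9.79 and 21.3 CPM for Col1a2, above the Egr1f NesCre- mice, of which the highest was at 9.42 CPM.

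Egr1f NesCre+ and Egr1f NesCre- mice, which come from the same run of mouse numbers and differ by the transgene, show what Cre and the loss of Egr1 together do on floxed alleles. Compared with Egr1f NesCre-, log2FC was 0.74 (SE 0.17, adjusted p = 0.243) for Col1a2, 0.66 (SE 0.209, adjusted p = 0.254) for Col1a1, 0.62 (SE 0.378, adjusted p = 0.42) for Col3a1 and 0.05 (SE 0.272, adjusted p = 0.949) for Col4a6, from edgeR's quasi-likelihood test with Benjamini-Hochberg adjustment over all genes tested. The median of these 4 was 0.64, that of the 38 other collagens tested was -0.11 and that of all 18074 genes was -0.007. The 4 were grouped because they vary together over these same mice, so here and below their median does not stand for 4 separate results. With a call defined by a fold change (FC) of 1.2 or more and an adjusted p no higher than 0.05, edgeR called 0 of 42 collagens and 0.0221% of all genes. Before adjustment 8 collagens were under 0.05, or 19.0% of those tested against 15.8% of all genes, of which Col1a1 and Col1a2 were higher and 6 others lower, where 7.88% of all genes were in each direction. DESeq2, the tool of the study's pairwise comparisons, called 2, Col1a2 with a log2FC of 0.75 (SE 0.176, adjusted p = 0.0151) and Col5a3 with -1.19 (SE 0.312, adjusted p = 0.0444). Over the 22 alternatives tried, the adjusted p of each ran from 5.5e-06 to 0.954. The lowest value of both came from edgeR without the filter on low counts, where each gene's own spread between mice was not used. Col1a2 was the only collagen of the 42 whose 2 groups did not overlap and that was higher in Egr1f NesCre+ mice, where 0.177% of all genes did the same, and none was lower without overlap, as 0.282% of all genes were.

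Markers of meningeal fibroblasts moved with these collagens in the same comparison. Of the 14 markers, 11 were above 0, as 48.6% of all genes were. Of these, 5 had an unadjusted p under 0.05, where 7.88% of all genes had and were higher. The median log2FC of the 14 was 0.61, and none was at 0 in all mice. Between Egr1f NesCre- and Egr1wt NesCre- mice, 11 of the 14 were below 0, 2 of them under an unadjusted 0.05, with a median of -0.28. There 50.1% of all genes were above 0, and 9.42% were under 0.05 in either direction. The summed level of the 14 markers ran from 74.6 to 126.7 CPM in Egr1f NesCre+ and from 65.3 to 101.7 CPM in Egr1f NesCre- mice, beside 36.7 to 182.0 in Egr1wt NesCre- and 61.1 to 111.6 in Egr1wt NesCre+ mice. With the mean of these markers as a covariate, the log2FC was 0.17 for Col1a1, 0.27 for Col1a2, -0.4 for Col3a1 and -0.31 for Col4a6, and the median of the 4 was -0.07. Without the 2 mice of the lowest and highest Col1a1, the log2FC was 0.45 for Col1a1 and 0.58 for Col1a2, and the median was 0.33.

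Against the 18 mice that kept Egr1, the Egr1f NesCre+ mice showed the same order of the 2 sets, in a comparison that shares these 6 mice and 6 of its controls with the one above. The log2FC was 0.56 (SE 0.204, edgeR adjusted p = 0.232) for Col1a1, 0.53 (SE 0.209, adjusted p = 0.242) for Col1a2, 0.56 (SE 0.322, adjusted p = 0.409) for Col3a1 and 0.09 (SE 0.226, adjusted p = 0.882) for Col4a6, whose sign turned in some alternatives. The median was 0.55 for these 4, -0.007 for the other 39 and -0.008 for all genes. Without the 2 mice of the lowest and highest Col1a1, the log2FC was 0.29 for Col1a1 and 0.3 for Col1a2. By edgeR 0 of 43 collagens were called, as were 0.00543% of all genes, and 9 collagens, or 20.9%, had an unadjusted p under 0.05, against 15.1% of all genes, with 5 higher (8.11% of all genes) and 4 lower (7%). DESeq2 called 1, Col20a1. No collagen had all 6 Egr1f NesCre+ mice above or below all 18 others, which 0.00543% of genes had in each direction.

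Col20a1, a FACIT collagen, was lower in Egr1cKO mice on average. Its lowest, median and highest levels were 7.54, 10.8 and 11.2 CPM in Egr1wt NesCre-, 7.89, 10.7 and 14.3 in Egr1f NesCre-, 7.49, 9.07 and 12.1 in Egr1wt NesCre+ and 4.99, 6.84 and 9.41 in Egr1f NesCre+ mice. The Egr1f NesCre+ mice reached below all 18 others but overlapped them from 7.49 CPM upwards. Compared with the 18 mice, log2FC was -0.53 (SE 0.137, edgeR adjusted p = 0.179), and with DESeq2 -0.53 (SE 0.135, adjusted p = 0.0408). Over 32 alternatives its log2FC lay between -0.63 and -0.45 and its adjusted p between 0.0408 and 0.448. Without a single male Egr1f NesCre+ mouse (replicate 3), log2FC was -0.6 with an adjusted p of 0.042. Reads of Col20a1 can include those of a gene model that overlaps it on the same strand.

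Col18a1, the multiplexin that yields endostatin, had the second smallest p of the 43 in this comparison and was higher on average in Egr1cKO mice. It was at 2.47, 3.48 and 5.5 CPM (lowest, median and highest) in Egr1wt NesCre-, 3.39, 5.18 and 6.63 in Egr1f NesCre-, 2.79, 3.51 and 6.72 in Egr1wt NesCre+ and 5.11, 6.29 and 10.7 in Egr1f NesCre+ mice. Both Egr1f genotypes had higher medians than both Egr1wt genotypes, and all 4 ranges overlapped. Its log2FC was 0.68 (SE 0.187, edgeR adjusted p = 0.192) against the 18 mice, 0.73 (SE 0.246, adjusted p = 0.357) against Egr1wt NesCre+ and 0.49 (SE 0.203, adjusted p = 0.524) between Egr1f NesCre- and Egr1wt NesCre- mice. The floxP term of the factorial fit, the mean difference of Egr1f from Egr1wt mice, was 0.62 (SE 0.163, adjusted p = 0.895), and over 31 alternatives its adjusted p ran from 0.00308 to 1. Endothelial markers moved with it, as the 6 listed summed to 158.4 to 179.2 CPM in Egr1f NesCre+ mice, 132.9 to 168.1 in Egr1f NesCre-, 99.3 to 196.5 in Egr1wt NesCre+ and 90.2 to 201.6 in Egr1wt NesCre- mice, and r of Col18a1 with their mean was 0.56. Their part in the result was not tested.

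Col5a3, a type V chain, was lowest in female Egr1cKO mice. The study names it among the genes that differed between the sexes in these mice by DESeq2. Here neither edgeR nor DESeq2 called it in that comparison. Over 13 alternatives its log2FC for females against males within Egr1f NesCre+ ran from -1.83 to -1.06. Its levels (ENSMUSG00000004098, chromosome 9, 20770050 to 20815067) were 3.03, 3.18 and 5.13 CPM (lowest, median and highest) in Egr1wt NesCre-, 3.66, 5.24 and 8.12 in Egr1f NesCre-, 1.89, 3.64 and 5.32 in Egr1wt NesCre+ and 1.06, 2.18 and 6.33 in Egr1f NesCre+ mice. The 3 female Egr1f NesCre+ mice, at 1.06, 1.17 and 1.75 CPM, were below the other 21 mice, and the highest Egr1f NesCre+ mouse was male replicate 3. How many of all genes set these 3 females apart was not counted, so this order is not shown to be particular to Col5a3. Compared with Egr1f NesCre-, log2FC was -1.16 (SE 0.328, edgeR adjusted p = 0.243), and among females alone -2.01 (SE 0.295, adjusted p = 0.0151), with a range of adjusted p from 5.5e-06 to 0.954 over the alternatives. Without male Egr1f NesCre+ replicate 3 it was -1.5 (adjusted p = 0.0433) against Egr1f NesCre- and -1.13 (adjusted p = 0.042) against the 18 mice, where all mice gave -0.65 (SE 0.285, adjusted p = 0.29). The Egr1f NesCre- controls themselves had a log2FC of 0.61 (SE 0.209, adjusted p = 0.524) against Egr1wt NesCre-. The difference of the genotype effect between females and males was -1.57 (SE 0.538, edgeR adjusted p = 0.989) against Egr1f NesCre- and -1.7 (SE 0.547, adjusted p = 0.777) against Egr1wt NesCre+.

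**Figure D3:**
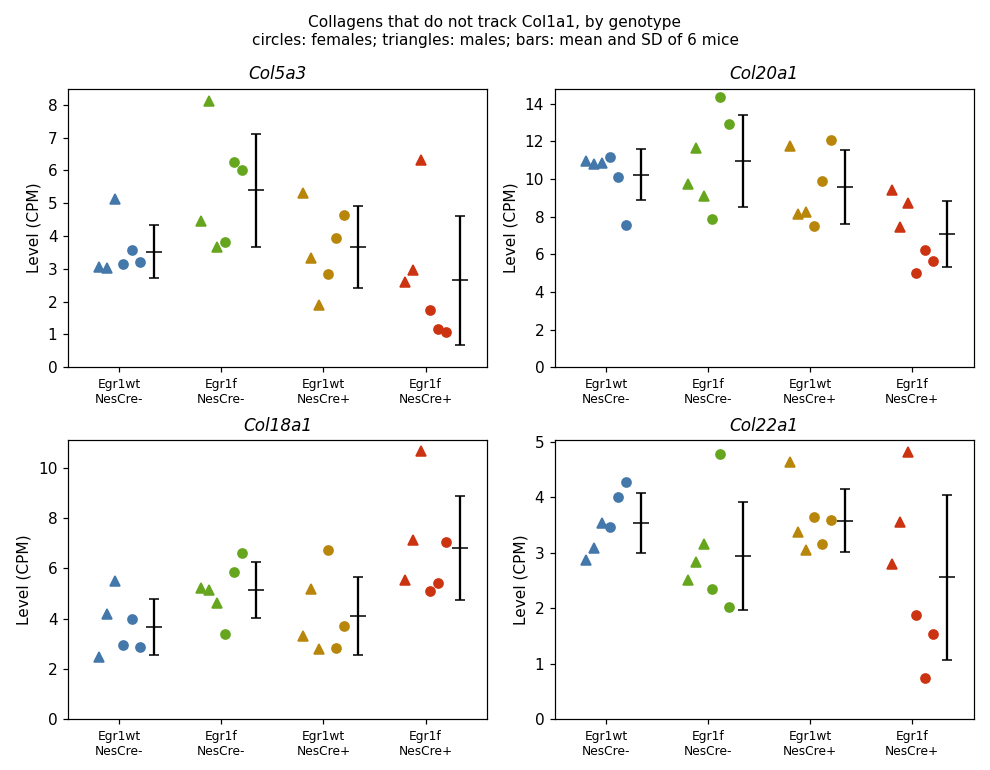
Levels of Col5a3, Col20a1, Col18a1 and Col22a1 in CPM for each of 24 mice by genotype, with circles for females, triangles for males and bars for the mean and SD of 6 mice. For Col5a3 the 3 female Egr1f NesCre+ mice lie at 1.06 to 1.75 CPM, below all other mice, and 1 male of that genotype at 6.33 CPM. The share of all genes with this order was not counted.

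The remaining members under an unadjusted 0.05 in these comparisons were spread over structural classes. Against the 18 mice they were Col25a1 (0.2 on the log2 scale), Col6a5 (0.54), Col5a1 (-0.53) and Col6a4 (-0.85), and of the 11 fibrillar genes 5 were above 0 and 6 below. The 6 type IV genes had log2FC with a median of 0.06, 5 of them above 0 and none under 0.05. Of the 6 type VI genes 2 were above 0 and 4 below, and of the 9 FACIT genes 4 and 5. Against Egr1f NesCre- the further genes were Col11a2 (-0.29), Col5a1 (-0.52), Col7a1 (-0.61) and Col6a4 (-0.83). Col6a4, a type VI chain, was at -1.84 (SE 0.307, edgeR adjusted p = 0.0322) in this comparison among females alone and 0.15 among males alone, and its adjusted p over 22 alternatives ran from 0.000856 to 0.973. The difference of its genotype effect between the sexes was -1.98 (SE 0.908, adjusted p = 1).

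Compared with Egr1wt NesCre+, the Egr1f NesCre+ mice carry the same transgene but come from the other run of mouse numbers. By edgeR 0 of 43 collagens were called, as were 0.00558% of all genes, DESeq2 called 0, and 5 collagens, or 11.6%, had an unadjusted p under 0.05, against 12.1% of all genes. The smallest p belonged to Col25a1, which was at 83.6 to 91.5 CPM in Egr1f NesCre+ mice and 57.6 to 86.1 CPM in Egr1wt NesCre+ mice, with a log2FC of 0.27 (SE 0.0852, adjusted p = 0.357). Without male Egr1wt NesCre+ replicate 2, the highest control, it was 0.33 (SE 0.0789, adjusted p = 0.0322), and over 22 alternatives the adjusted p ran from 0.0322 to 1. The others were Col18a1 (0.73), Col20a1 (-0.47, SE 0.167, adjusted p = 0.359), Col5a1 (-0.74) and Col22a1 (-0.62). No collagen had groups that did not overlap, where 0.134% of all genes did and were higher and 0.218% did and were lower. The 4 collagens that track Col1a1 had a median log2FC of 0.31, the other 39 of -0.07 and all genes of -0.02. Among females alone Col1a1 was at -0.02, Col1a2 at -0.05, Col3a1 at -0.17 and Col4a6 at 0.02, and the median of these 4 was -0.04, against 0.66 among males alone. The median of the other 39 was -0.55 among females and 0.26 among males. In females Col4a2 was at -0.45 (SE 0.0863, adjusted p = 0.0331), in males at 0.13, with a range of adjusted p from 0.0331 to 1. The difference of the genotype effect between females and males was -0.57 for Col4a2 (SE 0.255, edgeR adjusted p = 0.8). It was -0.61 for Col1a1 (SE 0.518, adjusted p = 0.871) and -0.76 for Col1a2 (SE 0.532, adjusted p = 0.867).

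With floxed alleles alone, several collagens outside the Col1a1 set averaged higher, none past the test. Between Egr1f NesCre- and Egr1wt NesCre- mice, edgeR and DESeq2 called 0 of 41 collagens, as edgeR called 0.00% of all genes. An unadjusted p under 0.05 was seen in 9, or 22%, all of them higher in Egr1f NesCre-, against 9.42% of all genes and 5.27% that were higher. The smallest was that of Col4a5, a basement membrane chain, at 5.93 to 7.4 CPM in Egr1f NesCre- and 3.83 to 5.66 CPM in Egr1wt NesCre- mice. Its log2FC was 0.46 (SE 0.13, adjusted p = 0.524), and it was the only collagen with no overlap of these groups, which 0.176% of all genes shared with it in this direction and 0.104% showed in the other. Col13a1, a transmembrane collagen, was at 0.718 to 2.09 CPM against 0.287 to 1.11 CPM (log2FC 1.04, SE 0.347, adjusted p = 0.524). Further genes were Col7a1 (0.65), Col9a3 (0.63), Col5a3 (0.61), Col18a1 (0.49), Col4a2 (0.25), Col8a2 (0.95) and Col26a1 (0.36), whereas the 4 that track Col1a1 had a median of -0.02. Of the 9 genes, Col9a3 and Col8a2 had their highest Egr1f NesCre- levels in mice rich in choroid plexus markers, given further on. Without the 5 mice rich in the marker Ttr, 4 of the tested collagens were under 0.05, and the share of all genes was not taken there. All 6 endothelial markers were above 0 in this comparison as well (median log2FC 0.22, 1 under an unadjusted 0.05), with sums of 132.9 to 168.1 CPM in Egr1f NesCre- and 90.2 to 201.6 CPM in Egr1wt NesCre- mice. Over the 24 mice r with their mean was 0.67 for Col4a5, 0.34 for Col13a1 and 0.56 for Col18a1, and -0.01 for Col4a2. Their part in the result was not tested.

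**Figure D4:**
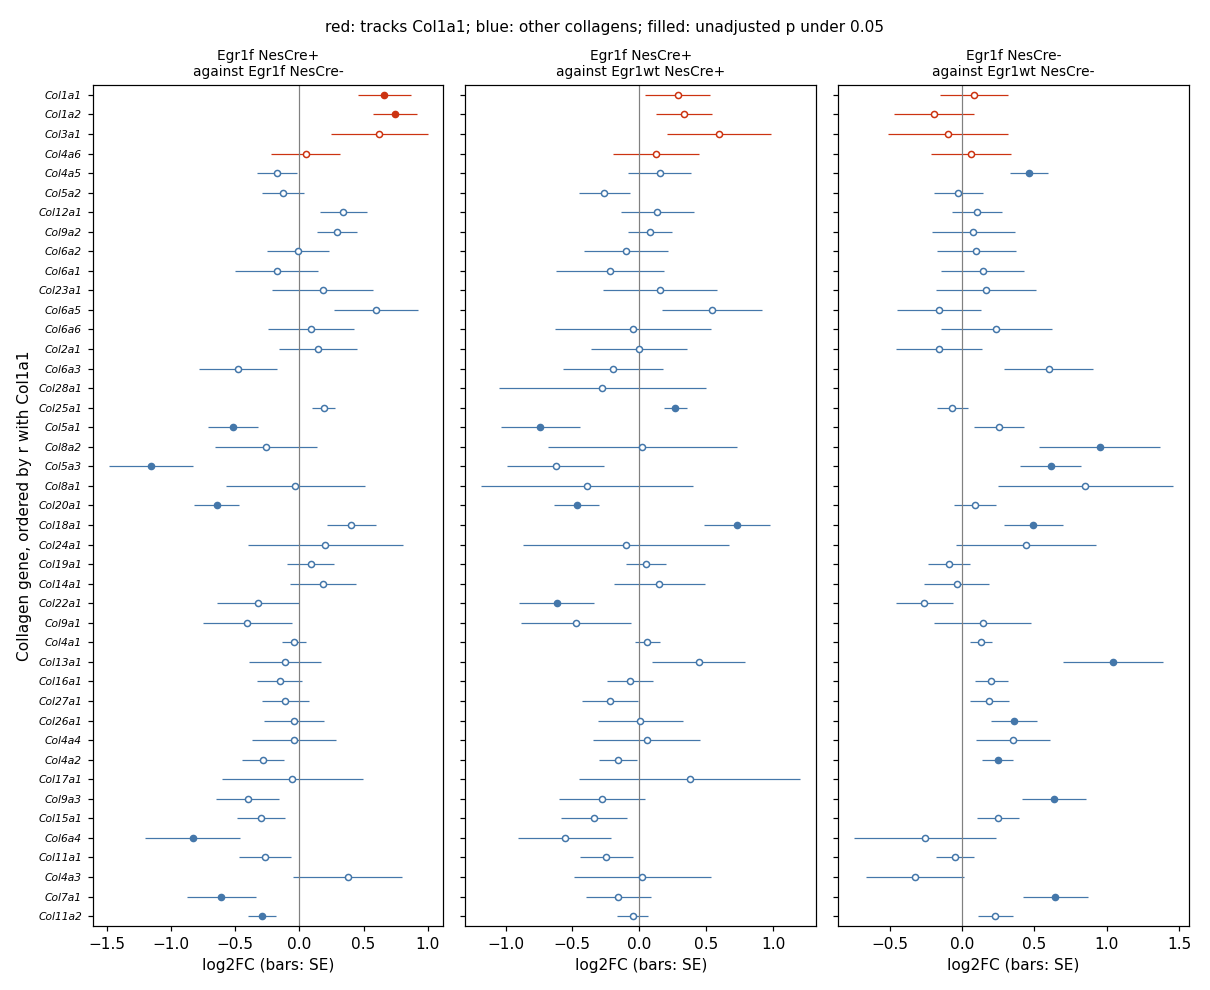
Log2FC with SE of the collagen genes tested in 3 comparisons, ordered from top to bottom by r with Col1a1. Red marks the 4 genes that track Col1a1, blue the others, and filled points an unadjusted p under 0.05, of which there were 8, 5 and 9.

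The transgene alone, in Egr1wt NesCre+ against Egr1wt NesCre- mice, gave 1 collagen of 41, or 2.44%, with an unadjusted p under 0.05, against 6.13% of all genes, and edgeR and DESeq2 called 0 where edgeR called 0.00% of all genes. That gene was Col9a3, with a log2FC of 0.51 (SE 0.237, edgeR adjusted p = 0.763), followed by Col8a1 (1.27) and Col27a1 (0.3). The highest Col9a3 levels of Egr1wt NesCre+, 16.13 and 30.57 CPM, were those of its mice rich in the choroid plexus marker Ttr, given further on. No Egr1wt NesCre- mouse was rich in it. Over 22 alternatives, among them leaving out such mice, the log2FC of Col9a3 ran from 0.065 to 0.707. None of the 41 had groups without overlap, against 0.128% of all genes that were higher and 0.122% that were lower. The collagens that track Col1a1 had a median log2FC of 0.1, and the others of 0.19.

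In the factorial fit over all 24 mice, which uses the same libraries as the comparisons above, edgeR called 0 collagens for the floxP term, the Nestin-Cre term, their interaction and sex, and DESeq2 likewise 0. The shares of all genes called were 0.00533%, 0.0480%, 0.00533% and 0.0746%. An unadjusted p under 0.05 was seen in 3 collagens for floxP (6.98%, against 5.39% of all genes), 5 for Nestin-Cre (11.6%, against 4.24%), 6 for the interaction (14.0%, against 18.8%) and 1 for sex (2.33%, against 5.92%). The Nestin-Cre term is the mean difference of NesCre+ from NesCre- mice over both Egr1 genotypes. Like the floxP term, it includes the Egr1cKO mice and so the loss of Egr1. For Egr1 itself it was -1.95 (SE 0.155, edgeR adjusted p = 2.07e-08). For Nestin-Cre the smallest collagen p belonged to Col1a1, with 0.57 (SE 0.18, adjusted p = 0.84), then to Col20a1, with -0.36 (SE 0.115, adjusted p = 0.892), and Col1a2, with 0.49 (SE 0.187, adjusted p = 0.997). The median of the 4 that track Col1a1 was 0.4 for this term and 0.06 for the others, and with the meningeal markers as a covariate the sign of Col3a1 and Col4a6 turned. For the transgene alone, given above, the medians of the 2 sets were 0.1 and 0.19. For floxP the smallest were those of Col18a1, Col13a1 (0.75, SE 0.242, adjusted p = 0.895) and Col4a5 (0.31, SE 0.135, adjusted p = 0.895). For the interaction, the change of the Nestin-Cre difference on floxed alleles, the smallest were those of Col5a1 (-1.01, SE 0.377, adjusted p = 0.169), Col5a3 (-1.15, SE 0.44, adjusted p = 0.175) and Col25a1 (0.34, SE 0.144, adjusted p = 0.203). Without male Egr1wt NesCre+ replicate 2, Col5a1 was at -1.17 (SE 0.347, adjusted p = 0.0401), in a range of adjusted p from 1.69e-08 to 0.707 over 31 alternatives. In that gene the highest level, 53.9 CPM, was that of a female Egr1wt NesCre+ mouse, where the other 5 of its genotype lay between 9.67 and 21.97 CPM.

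For sex, Col11a2 was the only collagen under an unadjusted 0.05, where 12 females averaged 35.7 ± 7.66 CPM and 12 males 41.5 ± 5.55 CPM, with a log2FC of -0.22 (SE 0.0907, adjusted p = 0.796), followed by Col16a1 (-0.22) and Col13a1 (-0.47). Within Egr1f NesCre+ mice most collagens averaged lower in females. There 37 of 41 had a log2FC below 0, with a median of -0.26 for the set that tracks Col1a1 and -0.42 for the others, where 50% of all genes were above 0. Of the 41, 9, or 22%, all lower, had an unadjusted p under 0.05, against 7.42% of all genes and 4.38% that were lower, while edgeR and DESeq2 called 0 and edgeR 0.0635% of all genes. Col22a1, a FACIT collagen of tissue junctions, had levels of 0.748, 1.53 and 1.87 CPM in the 3 female mice and of 2.8, 3.56 and 4.82 CPM in the 3 male mice (log2FC -1.42, SE 0.364, adjusted p = 0.566). Col20a1 had 4.99, 5.64 and 6.22 CPM in these female mice and 7.45, 8.7 and 9.41 CPM in the male mice (log2FC -0.6, SE 0.178, adjusted p = 0.566). The sexes did not overlap in this genotype for Col22a1, Col20a1, Col5a3, Col16a1, Col4a2, Col6a4, Col9a1 and Col13a1, 8 of the 41, all lower in females, as 7.12% of all genes were, and no collagen was higher without overlap, as 7.37% of all genes were. Further genes were Col5a3, Col16a1, Col6a4, Col4a2, Col11a1, Col9a3 and Col11a2. As a change of the genotype effect between the sexes, no gene of 19742 reached an adjusted p of 0.05, and the smallest collagen p was that of Col22a1 against Egr1f NesCre-, at -1.54 (SE 0.439, adjusted p = 0.84). Most choroid plexus and meningeal markers also averaged lower in females of this genotype, but the sums of both lists overlapped between the sexes. All 6 tested choroid plexus markers were below 0 (median log2FC -1.64), with sums of 31.98 to 1152 CPM in the males, of which 1 was rich in Ttr, and 52.07 to 60.43 CPM in the females. Of the 14 meningeal markers 12 were below 0 (median -0.29), with sums of 76.02 to 123.1 CPM in the males and 74.6 to 126.7 CPM in the females. Without the Ttr-rich male, 9 collagens were under 0.05, and the medians were -0.46 for the set that tracks Col1a1 and -0.53 for the others. The share of all genes was not taken without this male. The alternatives tried here include a fit with the meningeal marker mean as a covariate. Over all 13 of them, log2FC ran from -1.7 to -1.13 for Col22a1 and from -0.69 to -0.52 for Col20a1.

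Male replicate 3 held the highest Egr1f NesCre+ level of Col5a3, Col16a1, Col18a1 and Col4a2, and the number of collagens under an unadjusted 0.05 between its sexes ran from 4, without female replicate 2, to 14, without male replicate 1, when each of the 6 mice was left out. The share of all genes was not taken in these fits.

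Col8a1, Col8a2 and Col9a3 followed markers of the choroid plexus, the tissue of the ventricles that makes cerebrospinal fluid and lies next to the hippocampus. Their r with the mean of 10 markers over the 24 mice was 0.81, 0.84 and 0.89, and their r with each other 0.64 to 0.77. In 5 mice the marker Ttr, the transthyretin gene, lay between 289.9 and 1907 CPM, and in the other 19 between 6.35 and 45.4 CPM. These mice were 2 male Egr1f NesCre-, 1 male Egr1f NesCre+, 1 male Egr1wt NesCre+ and 1 female Egr1wt NesCre+, with none in Egr1wt NesCre-, so groups differ in it. Col9a3 was at 16.1 to 31.5 CPM in the 5 mice and 7.97 to 13.3 CPM in the 19, without overlap. Col8a1, a chain of short network collagens, was at 1.03 to 8.26 against 0.0853 to 1.11 CPM, and Col8a2 at 1.63 to 10.9 against 0.273 to 2.75 CPM. The sum of the 10 markers ran from 37.2 to 49.5 CPM in Egr1wt NesCre-, 37.0 to 1055 in Egr1f NesCre-, 58.1 to 2075 in Egr1wt NesCre+ and 32.0 to 1152 CPM in Egr1f NesCre+ mice. Without the 5 mice, the log2FC of Col8a1 between Egr1wt NesCre+ and Egr1wt NesCre- mice was -0.06, and the 2 members of smallest p against the 18 mice, Col20a1 and Col18a1, were at -0.59 and 0.71.

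**Figure D5:**
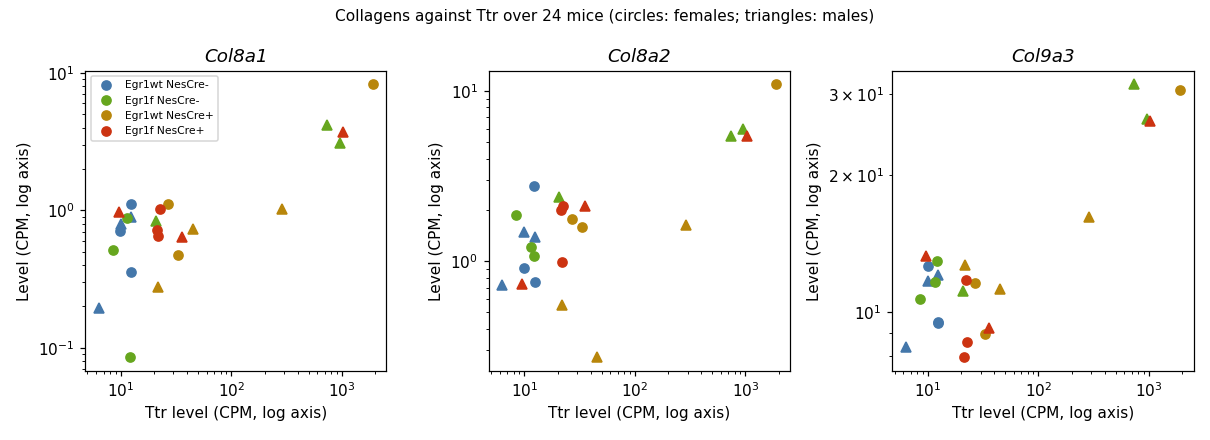
Levels of Col8a1, Col8a2 and Col9a3 against the level of Ttr, both in CPM on log axes, for 24 mice coloured by genotype, with circles for females and triangles for males. The 5 mice with Ttr between 289.9 and 1907 CPM hold Col9a3 levels of 16.1 to 31.5 CPM, above those of the other 19.

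Genes that build, process, bind and degrade collagens passed the test in no comparison, by edgeR. Of 16 genes of synthesis and secretion, 2 were higher and 2 lower at an unadjusted 0.05 in Egr1f NesCre+ mice against the 18 others, with a median log2FC of -0.03, where 8.11% of all genes were higher and 7% lower. Mia3, which loads procollagen at exit sites of the endoplasmic reticulum, was at 0.18 (SE 0.0574, edgeR adjusted p = 0.204). Of 12 tested genes of processing and crosslinking 1 was lower, Bmp1, the protease that trims procollagen ends, at -0.37 (SE 0.117, adjusted p = 0.204). Of 9 receptors 2 were higher and 2 lower, with Itga11, an integrin for fibrillar collagen, at -0.43 (SE 0.144, adjusted p = 0.214). Of 3 tested degrading enzymes 1 was higher. That was Mmp14, a membrane collagenase, at 8.66, 12.7 and 15.5 CPM (lowest, median and highest) in Egr1f NesCre- and 15.8, 19.7 and 29.7 CPM in Egr1f NesCre+ mice, without overlap, as for 0.177% of all genes in this direction. Egr1wt NesCre+ mice were at 11.5, 20.7 and 32.1 CPM and Egr1wt NesCre- mice at 11.1, 13.7 and 18.03 CPM. Its log2FC was 0.78 (SE 0.153, adjusted p = 0.243) against Egr1f NesCre-, 0.46 (SE 0.183, adjusted p = 0.251) against the 18 mice and 0.67 (SE 0.135, adjusted p = 0.0707) for the Nestin-Cre term, which includes the Egr1cKO mice.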

How the data were processed

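Hippocampal poly-A RNA of 24 mice was sequenced in non-stranded libraries. The submitters' processing notes name Trim Galore 3.8.2, FastQC, STAR 2.7.9 and GRCm38. The authors deposited raw whole-number read counts of 36605 genes, named by Ensembl identifiers, in each mouse, and the gene annotation they counted on is not given in the sources used here. All 24 columns were used, and sex, genotype and replicate number came from the labels. Reads of overlapping genes cannot be separated in such libraries, and the total of a mouse sets the precision of its low genes, which counting error limits first.

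From the deposited counts, symbols, positions and exonic lengths were taken from GENCODE M21, which named 36493 genes. The members, gene lists and marker lists were chosen with earlier results of these data known. Levels are CPM with TMM factors from the 19742 genes that edgeR's filterByExpr kept over all mice with a minimum count of 10, and correlations used log2 CPM with a prior count of 2. Differences were tested in R 4.3.3 with edgeR 4.0.16 (TMM, filterByExpr on the mice compared, quasi-likelihood F test, Benjamini-Hochberg adjustment over all genes tested), without a replicate block. The SE was taken from the log2FC and F (|log2FC| over √F), and a call needed an FC of 1.2 or more with an adjusted p no higher than 0.05. The factorial fit coded floxP, Nestin-Cre and sex as plus or minus 0.5. The mice are separate animals, so p-values measure the spread between mice. No 2 mice of a group differed by less than sampling noise, with a chi-square per degree of freedom of at least 5.04. Replicate numbers did not pair mice, as 2 of 24 correlations of deviations between same-numbered mice were over 0.1 (range -0.15 to 0.11). The scripts were tested on simulated data with known changes.

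Values are given for Col1a1 and Col5a3, called members, the 3 members of smallest p in each comparison, the 10 highest per kb, the 5 highest r with Col1a1 and the members next to the limit of 0.7, and the others as counts. Members outside that rule that are named were chosen after their values were seen. Alternatives were DESeq2 1.42.0, DESeq2's normalization before edgeR, all genes without the low-count filter, a replicate block, sex or the meningeal marker mean as a covariate, 1 sex alone, a shared fit, other limits and scales of the split, and each mouse left out. Leaving out the 5 mice with Ttr over 100 CPM, and the 2 with the lowest and highest Col1a1, was chosen after the data were seen. Promoter windows came from RefSeq, and 9 members had none in the table used here.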

Additional observations from a re-analysis of the deposited data

Results flagged for a closer look

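In 23 named collagens and 4 genotypes of 6 mice, the highest or lowest mouse was compared with the 5 others of its genotype, and in 16 of 92 groups it lay far from them by Dixon's 95% limit, where chance gives about 5% of groups. Male Egr1f NesCre+ replicate 3 stood above the others of its genotype in 4 genes. It had 117.5 CPM of Col4a2 (others 59.5 to 72.8), 32.6 CPM of Col16a1 (12.34 to 17.91), 10.68 CPM of Col18a1 (5.105 to 7.115) and 6.333 CPM of Col5a3 (1.06 to 2.964).

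Female Egr1wt NesCre+ replicate 1, one of the 5 mice rich in Ttr, had 30.57 CPM of Col9a3 (8.961 to 16.13), 8.256 CPM of Col8a1 (0.2763 to 1.113), 53.95 CPM of Col5a1 (9.672 to 21.97) and 11.47 CPM of Col27a1 (7.019 to 8.597). Male Egr1f NesCre+ replicate 2, also rich in Ttr, had 26.26 CPM of Col9a3 (7.97 to 13.25) and 3.727 CPM of Col8a1 (0.6374 to 1.028).

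Among the collagens that track Col1a1, female Egr1f NesCre- replicate 3 had 5.37 CPM of Col1a2 (8.013 to 9.416) and female Egr1f NesCre- replicate 2 had 4.565 CPM of Col3a1 (1.151 to 2.073). In Egr1wt NesCre- mice, male replicate 1, the mouse of lowest Col1a1, had 6.347 CPM of Col5a2 (10.82 to 12.7), and male replicate 3 had 5.128 CPM of Col5a3 (3.03 to 3.58). Female replicate 1 of that genotype had 13.13 CPM of Col16a1 (17.63 to 19.25), and female replicate 3 had 7.544 CPM of Col20a1 (10.11 to 11.16).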

How the results depend on the processing

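Of the named collagens' values, 836 with 1 mouse left out and 371 under other settings kept sign and side of the threshold, while 29 and 21 turned sign. A further 5 and 21 kept sign and became calls. These fits share most of their mice, and many of these members were picked by their small p, so a kept sign is no separate support. Low counts limit the precision of rare collagens, Col3a1 and Col4a6 among them.

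With the meningeal marker covariate, log2FC turned to -0.398 for Col3a1 and -0.309 for Col4a6 (Egr1f NesCre+ against Egr1f NesCre-), to -0.059 for Col4a6 (against the 18 mice), to -0.064 and -0.120 for Col3a1 and Col4a6 (Nestin-Cre) and to -0.200, -0.104 and -0.117 for Col1a1, Col3a1 and Col4a6 (interaction). The median of the genes that track Col1a1 then was -0.068 (Egr1f NesCre+ against Egr1f NesCre-). In females alone, Egr1f NesCre+ against Egr1wt NesCre+ gave -0.022 for Col1a1, -0.052 for Col1a2, -0.168 for Col3a1 and a median of -0.546 for the other collagens. In males alone that median was 0.258 and Col4a2 was at 0.130, and against Egr1f NesCre- Col4a6 was at -0.238 and Col6a4 at 0.147. Without the mice of lowest and highest Col1a1, Col4a6 was at -0.090 (18 mice), -0.050 (Egr1f NesCre-), -0.023 (Egr1wt NesCre+) and -0.117 (Nestin-Cre). Without the 5 mice with Ttr over 100 CPM, Col4a6 was at -0.035 (Egr1f NesCre+ against Egr1wt NesCre+) and Col8a1 at -0.063 (Egr1wt NesCre+ against Egr1wt NesCre-). With a replicate block, Col4a6 was at -0.004 (Nestin-Cre), and no collagen was called. With 1 mouse left out, Col4a6 ran from -0.047 to 0.201 (18 mice), -0.063 to 0.216 (Egr1f NesCre-), -0.051 to 0.371 (Egr1wt NesCre+), -0.095 to 0.091 (Nestin-Cre) and -0.122 to 0.231 (interaction), and Col1a1 from -0.022 to 0.323 (interaction). The cause was not tested.

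DESeq2 called 1 collagen against the 18 mice and 2 against Egr1f NesCre-, and females alone gave 2 against Egr1f NesCre- and 1 against Egr1wt NesCre+. The share of all genes called was taken for none of these. Without a filter on low counts edgeR called 10 against Egr1f NesCre-, 2 against Egr1wt NesCre+, 1 for Egr1f NesCre- against Egr1wt NesCre-, 2 for Egr1wt NesCre+ against Egr1wt NesCre-, 5 for Nestin-Cre, 6 for sex within Egr1f NesCre+, 6 for the interaction, 1 for floxP and 1 for sex. Of all genes, in the same order, it called 808 of 34293, 529 of 34143, 163 of 34333 and 156 of 34221. Next came 161 of 36605 for Nestin-Cre and 296 of 31690 for sex within Egr1f NesCre+. For the interaction, floxP and sex, it called 1173, 83 and 79 of 36605 without the filter. There the prior degrees of freedom were infinite, so each gene's own spread between mice was not used, whereas with the filter they were 6.3 to 8.03. With 1 mouse left out, calls ran from 0 to 2 against the 18 mice and from 0 to 1 against Egr1f NesCre-, against Egr1wt NesCre+ and for the interaction. At a limit of r of 0.8, 2 genes track Col1a1.

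For the settings below, the share of all genes under an unadjusted 0.05 was not taken. Their counts therefore cannot tell a shift of collagens from a shift of all genes. Collagens under an unadjusted 0.05 numbered 5 against the 18 mice without the mice of lowest and highest Col1a1. Against Egr1f NesCre- they were 13 in females, 5 in males, 4 with the covariate and 17 with no filter, and against Egr1wt NesCre+ 13 in females and 12 with no filter. For Egr1f NesCre- against Egr1wt NesCre- they were 5 in females, 5 in males and 4 without the Ttr-rich mice. For Egr1wt NesCre+ against Egr1wt NesCre- they were 0 with DESeq2, a replicate block or a shared fit, 4 in females and 8 with no filter. For Nestin-Cre they were 13 with no filter and 3 without the mice of lowest and highest Col1a1, for sex within Egr1f NesCre+ 16 and 14, for the interaction 14 with no filter and 2 without the Ttr-rich mice, and for floxP 8 with no filter. For the sex term they were 7 with no filter, 2 with a replicate block, 0 without the Ttr-rich mice and 2 without the mice of lowest and highest Col1a1. With 1 mouse left out they ran from 6 to 14 (18 mice), 6 to 13 (Egr1f NesCre-), 4 to 12 (Egr1wt NesCre+), 0 to 4 (Egr1wt NesCre+ against Egr1wt NesCre-), 3 to 8 (Nestin-Cre), 4 to 14 (sex within Egr1f NesCre+), 4 to 11 (interaction), 2 to 6 (floxP) and 1 to 3 (sex). The counts of 14, 13, 12 and 11 for the 18 mice, Egr1f NesCre-, Egr1wt NesCre+ and the interaction were those without male Egr1f NesCre+ replicate 3.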
